A study of Saccharomyces cerevisiae with 8 samples.

Results

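The 10 genes described here encode enzymes of fatty acid and phospholipid synthesis in budding yeast (Saccharomyces cerevisiae): ACC1, FAS1, FAS2, OLE1, ELO1, INO1, CHO1, CHO2, OPI3 and PSD1. They were taken by gene name for their place in the pathway, in a set drawn up with earlier results of these data known, and make up 10 of the 6668 genes listed in every library. All 10 passed the count minimum used here, a mean of at least 50 reads over the 4 genotypes in each assay, which 3737 genes passed. The strains, all in the W303 background, were an msp1 deletion (msp1Δ), a pex19 deletion (pex19Δ), a deletion of both genes (the double mutant) and W303 without these deletions (wild type). MSP1 encodes an AAA ATPase that pulls tail-anchored proteins out of the wrong membrane; PEX19 encodes the receptor and chaperone of peroxisomal membrane proteins. All strains grew for 16 h in synthetic medium with 2% glycerol and 2% ethanol and were harvested at an optical density of 2 to 2.5. Each genotype was 1 sample, from which 1 RNA-seq library was made and also 1 ribosome profiling library, whose reads are ribosome-protected fragments (RPF), the short mRNA pieces covered by ribosomes. With 1 library per genotype and assay no difference below has a replicate check, no test could be run and no p-value is given.

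Fatty acid synthesis begins with acetyl-CoA carboxylase (ACC1), which makes malonyl-CoA, and continues on the cytosolic fatty acid synthase, a complex of the FAS1 and FAS2 subunits. The desaturase Ole1 of the endoplasmic reticulum makes the monounsaturated fatty acids, and the Elo1 elongase lengthens medium-chain ones. Ino1 makes inositol phosphate for phosphatidylinositol. Cho1 makes phosphatidylserine, Psd1 of the inner mitochondrial membrane decarboxylates it to phosphatidylethanolamine, and the methyltransferases Cho2 and Opi3 turn that into phosphatidylcholine. Many of these genes are known to share an inositol-sensitive promoter element, UASINO, bound by the activators Ino2 and Ino4 and held back by the repressor Opi1. OLE1 is known instead for activation by Mga2 and Spt23 and for a low-oxygen response element (LORE).

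The promoter letters of this element are shown because some members hold them and some do not, and the INO1 paragraph sets the ratios in pex19Δ side by side for both. In the 500 bases before the start codon, 7 of the 10 members held the UASINO core CATGTG on either strand, as did 12.9% of the 3735 genes past the count minimum with such a window. The longer form CATGTGAA, which contains the core, stood before 4 members (FAS2, INO1, CHO1 and CHO2) and before 1.53% of those genes. The full UASINO consensus of 10 bases was found before 0 members and before 0.0803% of those genes. FAS1, OLE1 and ELO1 had no core match in this window, which says nothing of sites further away. The LORE letters ACTCAACAA stood before OLE1 alone among the members and before 0.348% of those genes. Matches are letters in the R64 reference (RefSeq), not measured binding. The first line below gives 200 bases of the INO1 promoter (minus strand, ending 100 bases before the start codon), with the core in capitals on whichever strand it reads. The other lines give a match (capitals) with 20 bases on each side, read in the direction of the motif.

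INO1 promoter, chrX:136034-136233, minus strand: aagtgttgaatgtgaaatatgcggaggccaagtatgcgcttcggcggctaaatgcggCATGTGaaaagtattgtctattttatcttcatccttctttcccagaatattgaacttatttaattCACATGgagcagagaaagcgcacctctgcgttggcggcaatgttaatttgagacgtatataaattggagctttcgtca
FAS2, chrXVI:108400-108445, minus strand: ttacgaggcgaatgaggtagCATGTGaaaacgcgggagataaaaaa
ACC1, chrXIV:661691-661736, minus strand: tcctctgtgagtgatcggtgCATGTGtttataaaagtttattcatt
CHO1, chrV:208608-208653, plus strand: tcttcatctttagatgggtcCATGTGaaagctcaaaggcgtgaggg
CHO2, chrVII:802153-802198, plus strand: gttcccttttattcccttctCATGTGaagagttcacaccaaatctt
OPI3, chrX:573122-573167, minus strand: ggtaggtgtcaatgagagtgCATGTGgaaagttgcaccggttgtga
PSD1, chrXIV:317810-317855, minus strand: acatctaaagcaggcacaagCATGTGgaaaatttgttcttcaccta
OLE1 LORE, chrVII:398265-398313, plus strand: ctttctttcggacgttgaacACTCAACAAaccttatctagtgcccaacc

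INO1 held 2 core matches, beginning 243 and 178 bases before its start codon. CHO2 held 3, of which a pair overlap as the palindrome at 338 and 336 bases, and OPI3 and PSD1 held 2 each. The LORE letters of OLE1 began 343 bases before its start codon.

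RNA-seq libraries held 4694951 to 5367091 reads and RPF libraries 1101458 to 2300792, the lowest being the RPF library of msp1Δ. The 10 members took 1.95% to 2.57% of RNA-seq reads and 1.17% to 1.58% of RPF reads, in both assays most in pex19Δ and least in wild type. MSP1 and PEX19 were each listed at 1 read, the lowest value any gene has, in the strains that lack them and at 104 or more elsewhere. Each member has 1 coding exon in the R64 annotation and 0 overlapping coding sequences, and 0 had a copy with at least 90% identity over 100 bases. The closest relatives were HFA1 for ACC1 (68.2% over 2077 bases) and ELO3 for ELO1 (67.5% over 455 bases). A library is a whole culture, so a shift in the share of cells and a shift in RNA per cell cannot be told apart. Every value is relative to the other genes of its assay, and the spike-in oligos that the labels mention were not used here.

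INO1 and OPI3 had the highest RNA levels of the pathway, and ELO1 and PSD1 the lowest, in all 4 genotypes. Levels between genes are given as the authors' deposited TPM, which is scaled by gene length. INO1 had RNA-seq levels of 1598, 1730.3 and 1503 TPM in msp1Δ, pex19Δ and the double mutant, against 1134 TPM in wild type. OPI3 came next, at 1303, 1193 and 1230.5 TPM in the same mutants and 1096 TPM in wild type. The FAS1, FAS2 and ACC1 messages followed at 715, 612 and 570 TPM in wild type. CHO1 (528), CHO2 (442) and OLE1 (431 TPM in wild type) lay close together, and in pex19Δ OLE1 stood above CHO1 and CHO2 with 808 TPM against 631 and 423. PSD1 and ELO1 were at 120.0 and 91.6 TPM in wild type, nearer to the median of 80.2 TPM over the genes past the count minimum. In RPF the order differed. INO1 was again highest, at 1987, 1754 and 1549.8 TPM in msp1Δ, pex19Δ and the double mutant and 1274 TPM in wild type. CHO1 (722 TPM in wild type) and OPI3 (639 TPM) came next. CHO2, in seventh or eighth place by RNA, ranked 8 of the 10 by RPF in every genotype, at 141, 121 and 101 TPM in the mutants and 93.8 TPM in wild type. RNA-seq TPM over the listed genes summed to between 813998 and 911428, so a TPM is compared here within a library, and comparisons between genotypes use scaled reads.

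**Figure D1:**
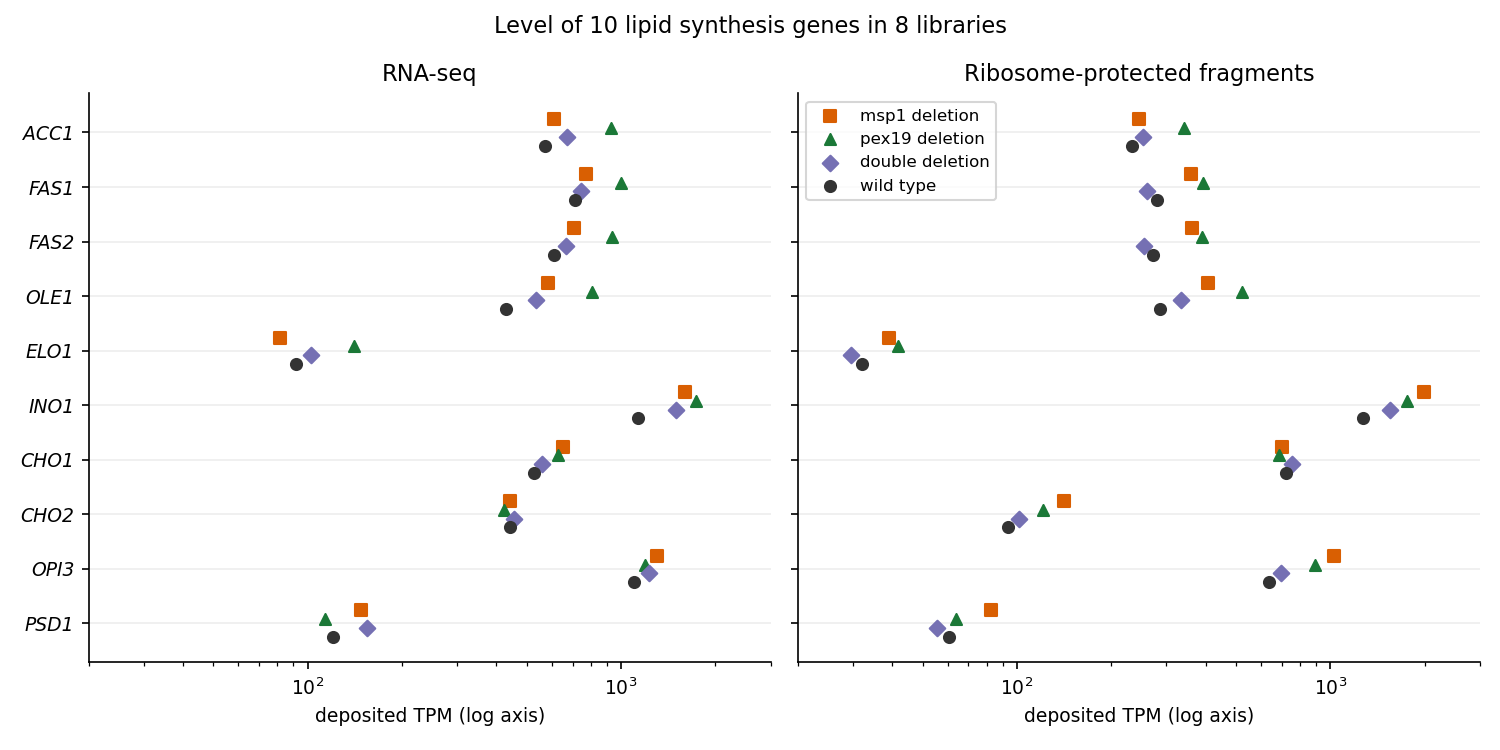
Deposited TPM (log axis) of each of the 10 genes in the RNA-seq libraries (left) and RPF libraries (right), 1 point per library for msp1Δ, pex19Δ and the double mutant and wild type. INO1 is the highest point of every library, ELO1 and PSD1 are the lowest of every library, and CHO2 has RPF levels of 93.8 to 141 TPM.

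Loss of PEX19 alone came with higher levels of the fatty acid branch and INO1, and loss of MSP1 alone with higher INO1, OLE1 and OPI3. FAS1 and FAS2 were slightly higher in msp1Δ, and PSD1 was higher there with an RPF interval that began at 0.01. CHO2 in both single deletions and OPI3 in pex19Δ stood higher in RPF alone. In RNA-seq OPI3 was close to wild type in pex19Δ, and CHO2 was close to it in msp1Δ and lower in pex19Δ. By the member medians the double mutant lay closest to wild type. Ratios are log2 ratios of reads scaled by TMM, a scaling that assumes most genes do not differ, and brackets give the 95% counting interval. RPM stands for the deposited reads of a gene per scaled library total, computed here with no correction for gene length. In pex19Δ 7 of 10 members were above wild type in both assays and 0 below it in both, where 28.1% and 25.9% of the 3737 genes were. The median member ratio there was 0.44 in RNA-seq and 0.42 in RPF, against 0.01 in both assays over all genes tested. In msp1Δ 6 members were above wild type in both assays (28.5% of genes) and 0 below in both (27.9%), with medians of 0.18 and 0.28 against 0.00 and 0.01 over all genes. In the double mutant 5 were above (27.9% of genes) and 1 below (28.5%), with medians of 0.10 and 0.08 against −0.01 and 0.01 over all genes. The msp1Δ ratios of INO1, OLE1 and OPI3 were at percentiles 97.6, 96.3 and 84.7 of all genes tested in RNA-seq. In RPF they were at 85.9, 78.3 and 87.9, so many other genes stood as high. Only OLE1, in pex19Δ, was at least 1.5-fold higher in both assays, a size that 0.482% of genes reached there. ACC1 passed that size there in RNA-seq and not in RPF, and 3.75% of genes, OLE1 among them, passed it in RNA-seq. In the msp1 and double deletions 0 members were at least 1.5-fold higher in both, where 0.348% and 0.134% of genes were, and 0 members were at least 1.5-fold lower in both in any mutant (0.187%, 0.482% and 0.348% of genes). At 2-fold, 0 members were higher in both assays in msp1Δ, pex19Δ or the double mutant (0.161%, 0.0268% and 0.0268% of genes) and 0 were lower in both (0.0268%, 0.187% and 0.161%). The 3 mutants share the wild-type libraries, so they are not independent of each other.

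**Figure D2:**
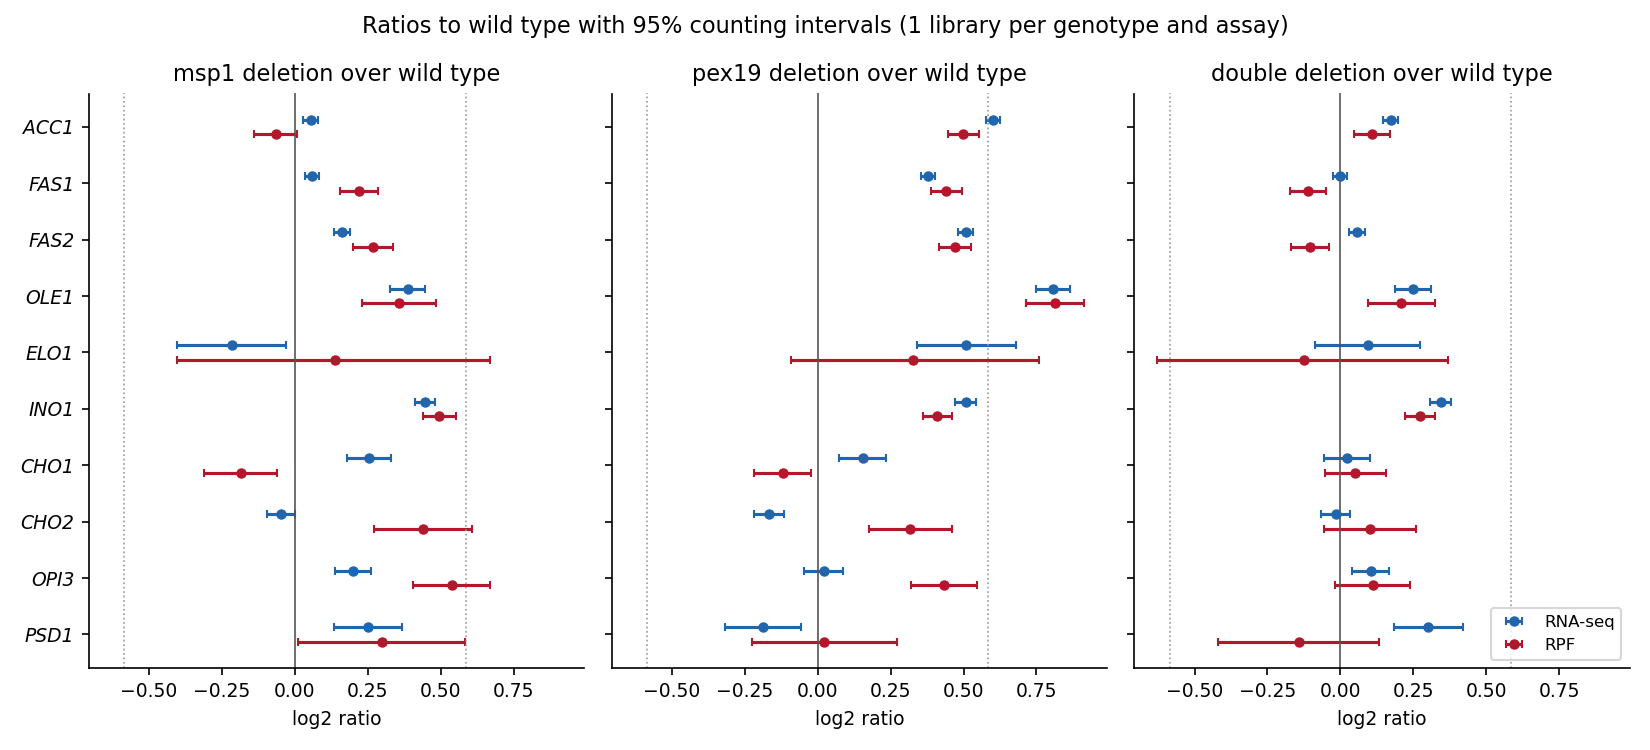
Log2 ratio of each gene to wild type in RNA-seq (blue) and RPF (red) for msp1Δ, pex19Δ and the double mutant, with 95% counting intervals and dotted lines at 1.5-fold. OLE1 in pex19Δ is the only gene right of the dotted line in both assays, and in that panel ACC1, FAS1, FAS2 and INO1 sit between 0.38 and 0.60.

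ACC1, FAS1 and FAS2, which carry acetyl-CoA to the finished acyl chain, were 1.3-fold to 1.5-fold higher in pex19Δ in both assays. ACC1 (YNR016C; chromosome XIV, 654673 to 661374) had 4626, 6762 and 5022 RNA RPM in msp1Δ, pex19Δ and the double mutant, against 4455 in wild type. Its RPF values were 2059, 3045 and 2322 RPM in the mutants and 2154 in wild type. The pex19 libraries were thus the highest in both assays, and in msp1Δ the RPF value was the lowest. The ratio of pex19Δ to wild type was 0.60 (0.58 to 0.63) by RNA-seq and 0.50 (0.45 to 0.55) by RPF.

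FAS1 (YKL182W; chromosome XI, 100671 to 106826), the β subunit, had 5345, 6662 and 5124 RNA RPM in msp1Δ, pex19Δ and the double mutant and 5129 in wild type. In RPF it had 2769, 3228 and 2203 RPM in the mutants and 2377 in wild type. Its pex19 ratio was 0.38 (0.35 to 0.40) by RNA-seq and 0.44 (0.39 to 0.49) by RPF. FAS2 (YPL231W; chromosome XVI, 108652 to 114315), the α subunit with the acyl carrier domain, was likewise highest in pex19Δ in both assays. FAS2 had 4516, 5742 and 4204 RNA RPM in the mutants in that order and 4038 in wild type, and 2558, 2943 and 1976 RPF RPM against 2124. Its pex19 ratio was 0.51 (0.48 to 0.53) by RNA-seq and 0.47 (0.42 to 0.53) by RPF. In the double mutant both subunit genes were close to wild type, at −0.0013 for FAS1 and 0.06 for FAS2 in RNA-seq and −0.11 and −0.10 in RPF.

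In msp1Δ the synthase genes differed little in RNA (0.06 for FAS1 and 0.16 for FAS2) and stood at 0.22 and 0.27 in RPF. Across all genes the msp1 RPF ratio was higher for longer genes (Spearman 0.312 over 3735 genes), and these are long genes, at 6156 and 5664 coding bases against a median of 1305. With the trend in length and GC content removed, the msp1Δ RPF ratios were 0.023 for FAS1, 0.083 for FAS2 and −0.26 for ACC1. With TMM over all listed genes they were 0.019, 0.068 and −0.27. The pex19 RPF ratio had a weaker trend with length (0.207), and with it removed ACC1, FAS1 and FAS2 stood at 0.38, 0.33 and 0.36 in RPF and at 0.64, 0.42 and 0.55 in RNA-seq.

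The products of FAS1 and FAS2 are known to be present in equal numbers in the complex, and the RPF levels of the genes were close to equal. The FAS1 to FAS2 ratio of RPF TPM was 0.995 in msp1Δ (0.95 to 1.05), 1.01 in pex19Δ (0.98 to 1.04), 1.02 in the double mutant (0.98 to 1.07) and 1.03 in wild type (0.99 to 1.07). All 4 counting intervals hold 1. In RNA-seq the ratio was 1.09, 1.07 and 1.12 in msp1Δ, pex19Δ and the double mutant and 1.17 in wild type (1.15 to 1.19), so the RNA of FAS1 stood above that of FAS2 in every genotype. The FAS1 to ACC1 ratio was less even, at 1.47, 1.15 and 1.03 in RPF of the mutants and 1.20 in wild type.

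OLE1 was the member furthest from wild type in pex19Δ. In msp1Δ it came after INO1 in RNA-seq and after OPI3, INO1 and CHO2 in RPF, and in the double mutant after INO1 in both assays and after PSD1 in RNA-seq. The gene (YGL055W; chromosome VII, 398628 to 400160) had 982, 1313 and 892 RNA RPM in msp1Δ, pex19Δ and the double mutant, against 751 in wild type. In RPF it had 758, 1042 and 685 RPM in the mutants and 592 in wild type. Wild type was the lowest and pex19Δ the highest of the 4 libraries in both assays. The pex19 ratio was 0.81 (0.75 to 0.86) by RNA-seq, a 1.75-fold difference, and 0.81 (0.72 to 0.91) by RPF, a 1.76-fold one. These ratios stood at percentiles 98.8 and 99.3 of all genes tested. The ratio was 0.39 and 0.36 in msp1Δ and 0.25 and 0.21 in the double mutant, in RNA-seq and RPF. Over the 11 other ways of scaling and filtering the counts the pex19 ratio of OLE1 stayed between 0.76 and 0.91 in RNA-seq and between 0.80 and 0.87 in RPF. Its RPF ratio in msp1Δ was 0.16 with TMM over all listed genes.

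The genes whose 6 ratios to wild type lay nearest to those of OLE1, by Euclidean distance over all 3737 genes, were ARG4 (0.28), CIT2 (0.31) and ARG7 (0.39). ARG4 encodes argininosuccinate lyase, CIT2 the peroxisomal citrate synthase and ARG7 the mitochondrial ornithine acetyltransferase. CIT2 stood at 0.90 and 0.92 in pex19Δ in RNA-seq and RPF, 0.36 and 0.57 in msp1Δ and 0.33 and 0.36 in the double mutant. The nearest member was INO1, at a distance of 0.54.

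ELO1 (YJL196C; chromosome X, 67850 to 68782) was thinly read in RPF, too thinly to resolve a difference of the sizes seen here. RPF reads numbered 48, 113 and 61 in msp1Δ, pex19Δ and the double mutant and 83 in wild type, and the RPF intervals of all 3 ratios hold 0. In RNA-seq it had 81.8, 135 and 101 RPM in the mutants and 95.1 in wild type. The RNA ratio was 0.51 in pex19Δ (0.34 to 0.68), −0.22 in msp1Δ (−0.40 to −0.03) and 0.09 in the double mutant (−0.09 to 0.27). ELO2 and ELO3, the elongases of longer chains, were more abundant. The ELO1 to ELO2 ratio of RNA TPM was 0.56, 0.80 and 0.64 in msp1Δ, pex19Δ and the double mutant and 0.67 in wild type, and in RPF it was 0.25, 0.29 and 0.20 against 0.27.

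INO1 was higher than wild type in all 3 mutants and both assays. The gene (YJL153C; chromosome X, 134332 to 135933) had 2818, 2940.1 and 2623 RNA RPM in msp1Δ, pex19Δ and the double mutant, against 2068 in wild type. RPF values were 3882, 3661 and 3328 RPM in the mutants and 2755 in wild type. Wild type was thus the lowest library in both assays. The RNA-seq and RPF ratios were 0.45 (0.41 to 0.48) and 0.49 (0.44 to 0.55) in msp1Δ. They were 0.51 (0.47 to 0.54) and 0.41 (0.36 to 0.46) in pex19Δ, and 0.34 (0.31 to 0.38) and 0.27 (0.22 to 0.33) in the double mutant. Since all 3 rest on the same wild-type libraries, this common direction is not 3 separate observations. Among the other members with the UASINO core, the RNA ratios in pex19Δ were 0.60 for ACC1 and 0.51 for FAS2, and for OPI3, CHO1, CHO2 and PSD1 they ran from −0.19 to 0.15. Among the members without a core match in the window searched they were 0.38 for FAS1, 0.81 for OLE1 and 0.51 for ELO1. In RPF of pex19Δ the other members with the core stood at 0.50 (ACC1), 0.47 (FAS2), 0.43 (OPI3), 0.32 (CHO2), 0.02 (PSD1) and −0.12 (CHO1). Those without a match there stood at 0.44 (FAS1), 0.81 (OLE1) and 0.33 (ELO1). Sites further away were not searched, and the part of the element in these ratios was not tested. With TMM over all listed genes the RPF ratio of INO1 in msp1Δ was 0.29.

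CHO1 and PSD1, which make phosphatidylserine and its decarboxylation product, showed small and mixed differences. CHO1 (YER026C; chromosome V, 207644 to 208474) had 578, 539 and 492 RNA RPM in msp1Δ, pex19Δ and the double mutant and 485 in wild type. In RPF it had 691, 723 and 814 RPM in the mutants, against 786 in wild type. Its RNA was highest and its RPF lowest in msp1Δ. The msp1 ratio was 0.25 (0.18 to 0.33) by RNA-seq and −0.19 (−0.31 to −0.06) by RPF, and the pex19 ratio 0.15 and −0.12. PSD1 (YNL169C; chromosome XIV, 316169 to 317671) had 244, 179.9 and 252 RNA RPM in the mutants and 205 in wild type. Its RPF reads numbered 168, 286 and 189 in the mutants and 260 in wild type, or 151, 125 and 111 RPM against 123. PSD1 RNA stood at −0.19 in pex19Δ (−0.32 to −0.06) and 0.30 in the double mutant (0.18 to 0.42), with RPF ratios of 0.02 (−0.22 to 0.27) and −0.14 (−0.42 to 0.13). In msp1Δ PSD1 stood at 0.25 (0.13 to 0.37) in RNA-seq and 0.30 (0.01 to 0.58) in RPF. With TMM over all listed genes that RPF ratio was 0.0975. PSD2, the decarboxylase gene outside mitochondria, had 30 to 55 RPF reads, below the count minimum on average, and the PSD1 to PSD2 ratio of RPF TPM was 13.0, 12.05 and 12.2 in the mutants and 12.8 in wild type.

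CHO2 and OPI3, the methyltransferases in series, were higher in RPF than in wild type in both single deletions while their RNA differed less. CHO2 (YGR157W; chromosome VII, 802440 to 805049) had 1286, 1184 and 1313 RNA RPM in msp1Δ, pex19Δ and the double mutant, against 1329 in wild type. Its RPF values were 454, 417 and 359 RPM in the mutants and 334 in wild type. The RNA-seq and RPF ratios were −0.05 (−0.09 to 0.00) and 0.44 (0.27 to 0.61) in msp1Δ and −0.17 (−0.22 to −0.11) and 0.32 (0.18 to 0.46) in pex19Δ. With the length and GC trend removed the msp1 RPF ratio of CHO2 was 0.27. OPI3 (YJR073C; chromosome X, 572315 to 572935) had 845, 746 and 790.2 RNA RPM in the mutants and 735 in wild type, and 738, 685 and 549 RPF RPM against 508. Its ratios were 0.20 (0.14 to 0.26) and 0.54 (0.40 to 0.67) in msp1Δ and 0.02 (−0.05 to 0.09) and 0.43 (0.32 to 0.55) in pex19Δ. In the double mutant both genes were near wild type in both assays, with ratios between −0.02 and 0.11. The OPI3 to CHO2 ratio of TPM was 2.95, 2.82 and 2.70 in RNA-seq of the mutants and 2.48 in wild type, but 7.29, 7.37 and 6.85 in RPF and 6.81 in wild type.

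**Figure D3:**
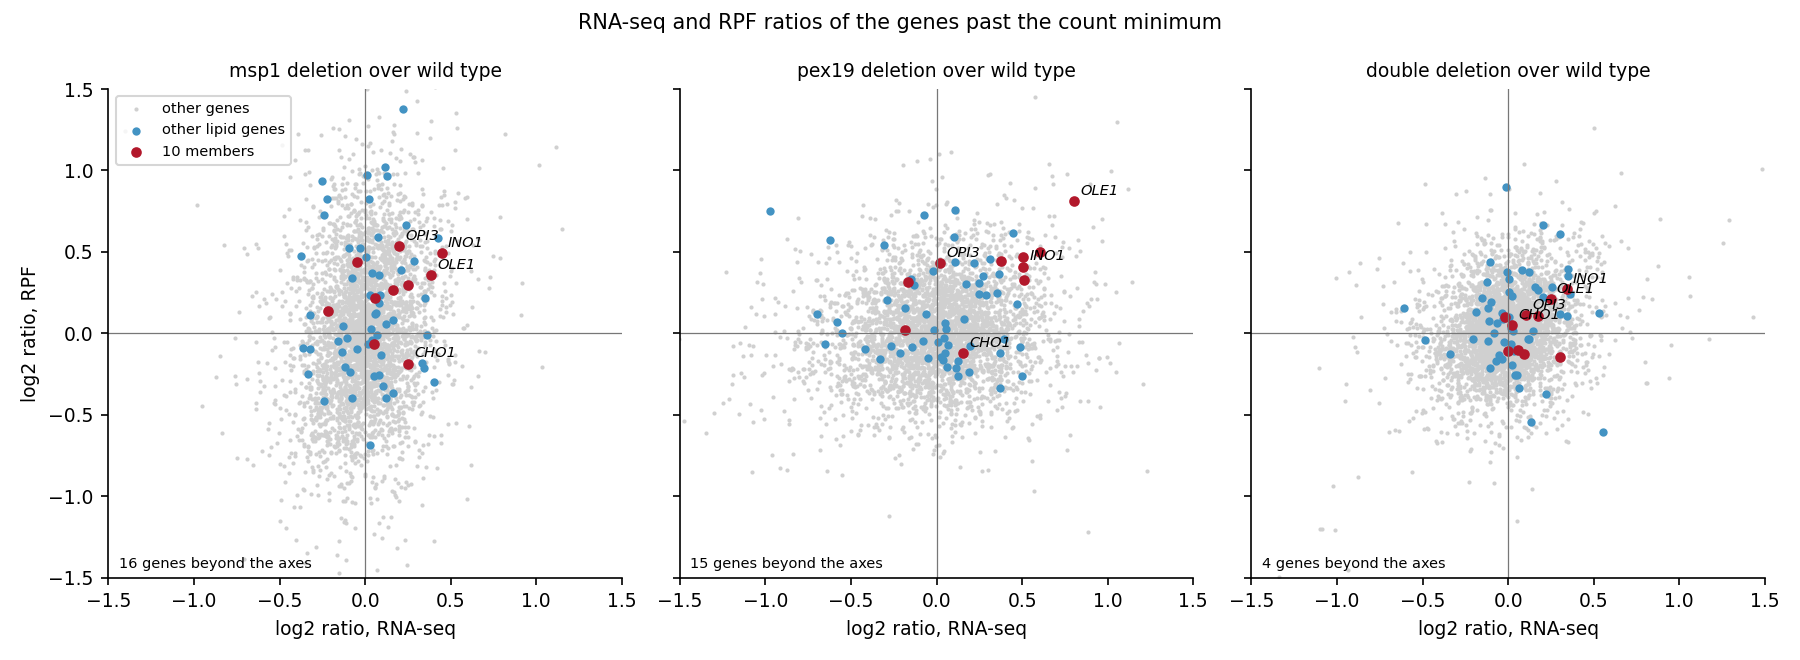
Log2 ratio to wild type in RNA-seq (horizontal) and RPF (vertical) of the 3737 genes past the count minimum for msp1Δ, pex19Δ and the double mutant, with the 10 members in red and 56 other lipid genes in blue; genes beyond a log2 ratio of 1.5 fall outside the axes. Among the members, OLE1 lies furthest to the upper right in the pex19 panel, where CHO1 lies below 0 in RPF. OPI3 lies high in RPF in the msp1 and pex19 panels.

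The members differed widely in RPF relative to RNA, with CHO1 and INO1 highest and CHO2 lowest in all 4 genotypes. The value is the log2 ratio of RPF TPM to RNA TPM, set against the median gene of the same genotype. CHO1 stood at 0.53, 0.72 and 1.01 in msp1Δ, pex19Δ and the double mutant and 1.02 in wild type, and INO1 at 0.73, 0.61 and 0.62 in the mutants and 0.74 in wild type. CHO2 stood at −1.23, −1.21 and −1.59 in the mutants and −1.67 in wild type. ACC1, FAS1, FAS2 and ELO1 were below the median gene in all 4 genotypes, between −0.55 and −1.22, and OLE1 was close to it (−0.10 to −0.02). In wild type the values of CHO1 and CHO2 stood at percentiles 85.5 and 6.61 of the genes tested.

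Against wild type, RPF relative to RNA was higher for CHO2 and OPI3 in the single deletions and lower for CHO1. The difference for CHO2 was 0.44 (0.26 to 0.61) in msp1Δ and 0.46 (0.31 to 0.60) in pex19Δ, and for OPI3 0.29 (0.14 to 0.43) and 0.38 (0.25 to 0.51). For CHO1 it was −0.49 (−0.64 to −0.35) and −0.30 (−0.43 to −0.18). In the double mutant the differences were 0.08 for CHO2, −0.03 for OPI3 and −0.01 for CHO1, with intervals that hold 0, and PSD1 stood furthest from 0 at −0.49 (−0.78 to −0.19). OLE1 differed by −0.08 to −0.02, with intervals that hold 0 in all 3 mutants. Many other genes differed as much. The pex19Δ differences of CHO2 and OPI3 were at percentiles 87.6 and 83.6 of the genes tested and that of CHO1 at 22.4, and the double mutant's PSD1 was at 5.78.

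**Figure D4:**
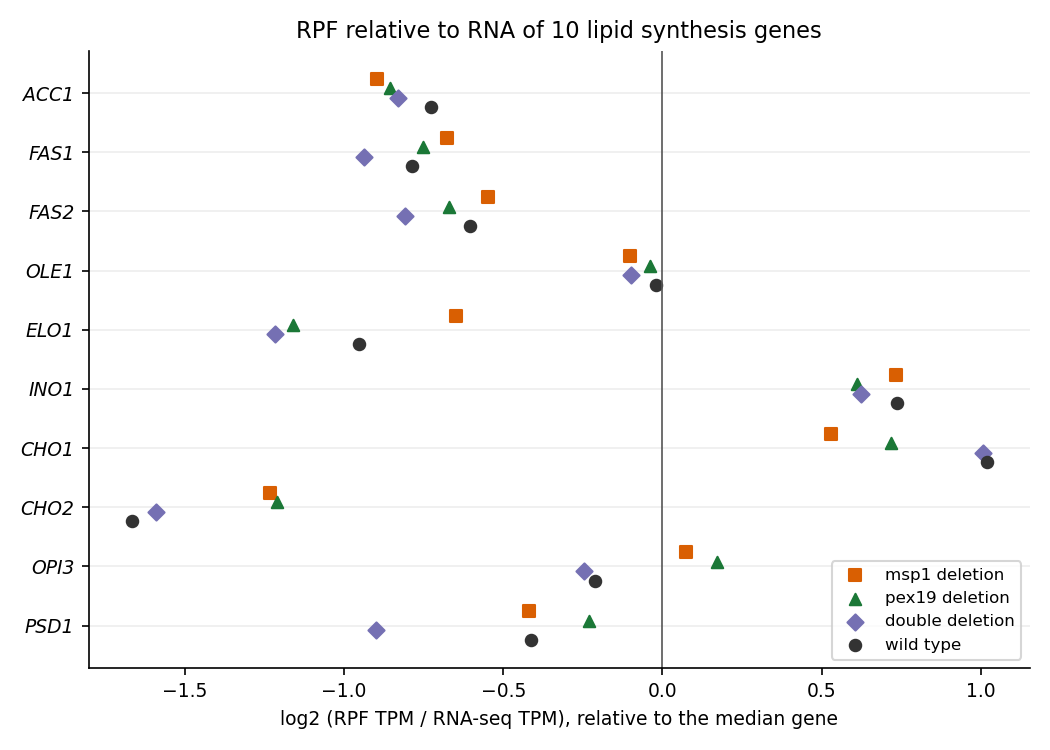
Log2 of RPF TPM over RNA-seq TPM of each gene relative to the median gene, 1 point for each of msp1Δ, pex19Δ and the double mutant and wild type. CHO1 and INO1 lie right of the median gene and CHO2 far left of it in every genotype, and the double mutant and wild type points nearly coincide for CHO1, CHO2 and OPI3.

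The double mutant against each single deletion compares strains that differ in the other gene where one is already lost. These comparisons reuse the same libraries and are no independent evidence. Against pex19Δ, the fatty acid genes were lower. ACC1 stood at −0.43 in RNA-seq and −0.39 in RPF, FAS1 at −0.38 and −0.55, FAS2 at −0.45 and −0.57, and OLE1 at −0.56 (−0.61 to −0.50) and −0.60 (−0.71 to −0.50). Of the 10 members 6 were below in both assays and 0 above in both, where 28.2% and 26% of genes were, and 0 were at least 1.5-fold lower or higher in both (0.723% and 0.669% of genes). OLE1 was past 1.5-fold lower in RPF, as were 2.65% of genes, and not in RNA-seq. The RPF ratio of the double mutant to pex19Δ was lower for longer genes (Spearman −0.266), and with that trend removed ACC1, FAS1 and FAS2 stood at −0.26, −0.43 and −0.45 in RPF. PSD1 RNA went the other way, at 0.49 (0.36 to 0.62), with −0.17 in RPF (−0.44 to 0.10). Against msp1Δ the RNA of every member was within 0.32 of equal, from −0.23 for CHO1 to 0.31 for ELO1. There 1 member, ACC1 at 0.12 and 0.17, was above in both assays (26.4% of genes) and 5 were below in both (26.8%). Past 1.5-fold higher or lower in both were 0 members (0.268% and 0.669% of genes). In RPF 8 of 10 members were lower, where 49.9% of genes were. PSD1 was lowest at −0.44 (−0.75 to −0.13), with OPI3 at −0.43 (−0.56 to −0.29) and CHO2 at −0.34 (−0.51 to −0.17), while CHO1 was 0.24 higher (0.11 to 0.37). These RPF ratios share the msp1 library of lowest depth, and across genes they were lower for longer genes (Spearman −0.347). With that trend removed OPI3 stood at −0.57 and CHO2 at −0.16.

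**Figure D5:**
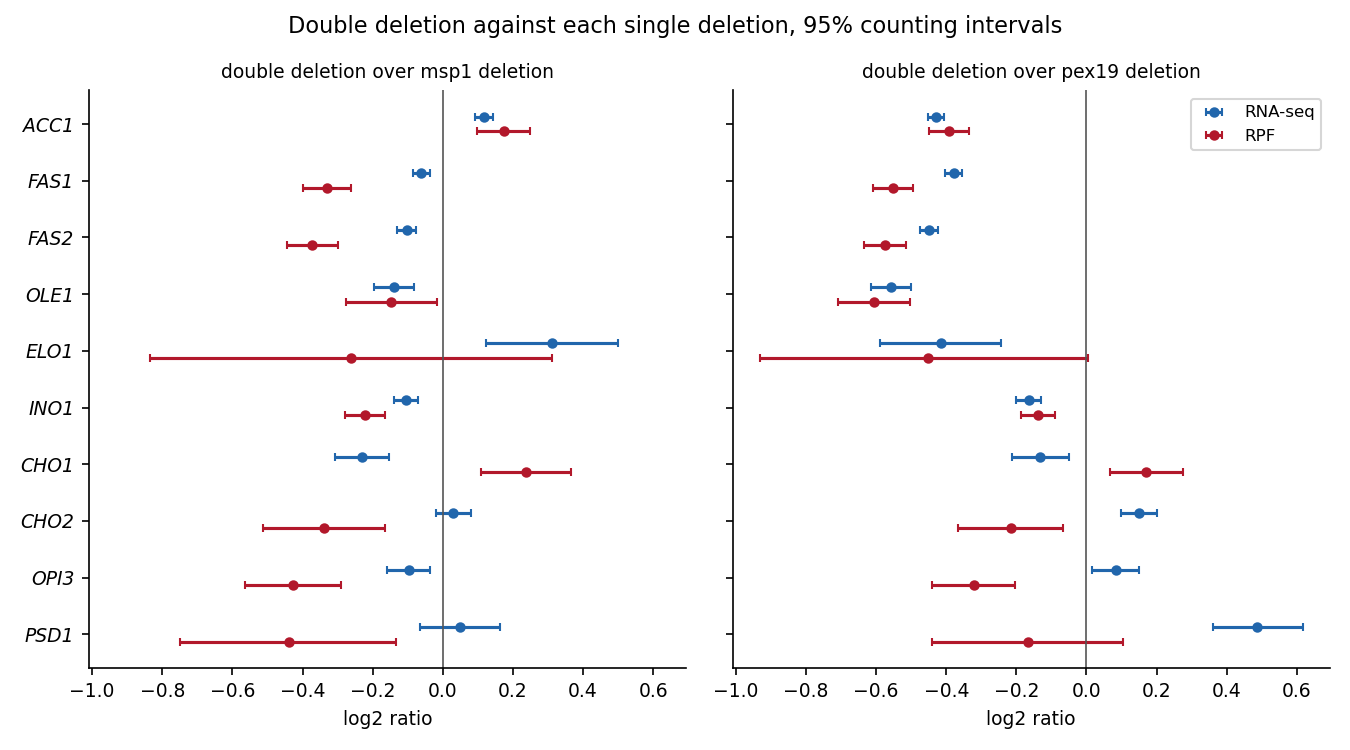
Log2 ratio of the double mutant to msp1Δ (left) and to pex19Δ (right) in RNA-seq (blue) and RPF (red), with 95% counting intervals. On the right ACC1, FAS1, FAS2 and OLE1 lie between −0.38 and −0.60 in both assays, and on the left RPF values of FAS1, FAS2, CHO2, OPI3 and PSD1 lie below their RNA values.

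The sum of the single effects differed from the double mutant most for OLE1 as first computed, and for OPI3 in RPF once the trend with length and GC content was removed. The nonadditive value, the double mutant's log2 ratio to wild type minus those of both single deletions, was −0.94 for OLE1 (−1.03 to −0.86) by RNA-seq and −0.96 (−1.12 to −0.80) by RPF. FAS2 stood at −0.61 and −0.84, INO1 at −0.61 and −0.63, FAS1 at −0.44 and −0.77, and ACC1 at −0.48 and −0.33. OPI3 and CHO2 stood apart from 0 mainly in RPF, at −0.12 and −0.86 and at 0.20 and −0.66. CHO1 and PSD1 had opposite signs in the assays. CHO1 stood at −0.39 in RNA-seq and 0.36 (0.20 to 0.52) in RPF, and PSD1 at 0.24 and −0.46 (−0.85 to −0.08). ELO1 stood at −0.20 (−0.45 to 0.05) and −0.59 (−1.27 to 0.09), with intervals that hold 0. With the length and GC trend removed the RPF values were −0.45 for FAS1, −0.53 for FAS2, 0.0019 for ACC1, −0.41 for CHO2, −0.54 for INO1, −0.88 for OLE1 and −1.02 for OPI3. With TMM over all listed genes ACC1 stood at −0.19 in RPF. Over all genes tested the median nonadditive value was −0.01 in RNA-seq and 0.00 in RPF. The value of OLE1 was at percentile 1.71 of all genes in RNA-seq and 5.57 in RPF. In RPF the values of ACC1, INO1 and CHO2 were at percentiles 29.0, 14.5 and 13.4, so many other genes had values as low.

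The medians of the other lipid genes lay nearer to wild type than those of the members, except in RPF of the double mutant. Of 73 further genes in 12 lists, 72 were found and 56 passed the count minimum. In each mutant 0 of the 56 were at least 1.5-fold higher in both assays and 0 lower in both, shares that over all genes tested were 0.134% to 0.482% and 0.187% to 0.482%. Their median RNA-seq and RPF ratios were 0.04 and 0.07 in msp1Δ, 0.05 and 0.04 in pex19Δ and 0.02 and 0.09 in the double mutant. Above wild type in both assays were 22, 17 and 21 of them in msp1Δ, pex19Δ and the double mutant, or 39.3%, 30.4% and 37.5%, against 28.5%, 28.1% and 27.9% of all genes tested. Below in both were 11, 8 and 9, or 19.6%, 14.3% and 16.1%, against 27.9%, 25.9% and 28.5% of all genes. In pex19Δ the list medians in RNA-seq ran from −0.22 for the OLE1 regulators to 0.35 for elongation and desaturation. Single genes of the 56 ran there from −0.97 to 0.50, against −0.19 to 0.81 for the 10 members. In RPF of msp1Δ they ran from −0.69 to 1.38, against −0.19 to 0.54. A median near 0 thus does not place each gene near wild type.

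Among the genes that act beside the members, the 5 other genes of elongation had a median RPF ratio of 0.25 in pex19Δ. There ELO2 stood at 0.25 and 0.24, and IFA38, the ketoreductase of elongation, at 0.11 and 0.44. PHS1, of the same list, was at 0.48 in RNA-seq and −0.08 in RPF. ITR1, the inositol transporter, was at 0.31 and 0.46 in pex19Δ and 0.08 and 0.59 in msp1Δ. Of the same list, ITR2 was at 0.44 and 0.62 in pex19Δ and INM1 at 0.06 and 0.03. BPL1, which attaches biotin to ACC1, was at 0.47 and 0.18 in pex19Δ, with 119 RPF reads there against 97 in wild type. ACB1, listed with BPL1, was at 0.13 in RNA-seq and −0.26 (−0.45 to −0.08) in RPF of pex19Δ.

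Regulators of the members gave no common direction. OPI1, the repressor of UASINO genes, stood at −0.33 and −0.16 in pex19Δ and −0.16 and −0.05 in msp1Δ. In the double mutant it stood at −0.10 and −0.21, and its RPF intervals in all 3 mutants hold 0. INO4 stood at 0.37 and −0.34, 0.12 and 0.06, and −0.19 and 0.13 in those strains, with 64 to 117 RPF reads. UME6, listed with them, stood at 0.19 and −0.24, 0.34 and −0.21, and 0.30 and 0.12. MGA2, an activator of OLE1, was at 0.22 and 0.43 in pex19Δ, 0.35 and 0.22 in msp1Δ and 0.35 and 0.39 in the double mutant. SPT23, the other activator, was at −0.29 and 0.20, −0.32 and 0.11, and 0.01 and 0.03 in the same strains. UBX2, which takes part in the processing of both activators, was at −0.70 in RNA-seq and 0.12 in RPF of pex19Δ. In pex19Δ 5.41% of all genes were lower by 1.5-fold or more in RNA-seq and 1.87% in RPF, and the part of the RNA-seq library in single RNA values was not tested.

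Several genes of the wider lists had RPF ratios far from their RNA-seq ratios, and were thinly read in RPF. DGA1, which makes triacylglycerol, stood at −0.97 in RNA-seq and 0.75 in RPF of pex19Δ, with 90 RPF reads against 49. EPT1, an ethanolamine phosphotransferase, was at 0.22 and 1.38 in msp1Δ, with 57 RPF reads against 41. SLC1 and TAM41, of phosphatidic acid and CDP-diacylglycerol synthesis, stood at 0.01 and 0.97 and at −0.22 and 0.83 in msp1Δ. FAA2, a peroxisomal acyl-CoA synthetase, was at 0.12 and 1.02 there. TGL5, of the storage lipid list, went the other way in msp1Δ, at 0.12 and −0.40 (−1.21 to 0.35), with 21 RPF reads against 53. In the msp1Δ RPF library, the shallowest, 10.1% of all genes were higher by 1.5-fold or more and 8.19% lower, against 0.883% and 0.91% in RNA-seq, and the part of depth in these values was not tested. Of the cardiolipin list, MDM35, a partner of the lipid transfer proteins Ups1 and Ups2, was below wild type in RNA of all 3 deletions (−0.33, −0.58 and −0.49 in msp1, pex19 and double) and stood at −0.25, 0.07 and −0.04 in RPF. Of mitochondrial fatty acid synthesis, ETR1 and ACP1 stood between −0.42 and 0.07 in every mutant and assay. MCT1, the malonyl transferase of that pathway, stood at −0.25 in RNA-seq and 0.94 in RPF of msp1Δ, with 83 RPF reads against 82, and between −0.26 and 0.05 in pex19Δ and the double mutant.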

How the data were processed

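RNA-seq and RPF libraries of 4 genotypes were analysed, 8 in all. The submitters' processing notes name cutadapt 1.8, STAR 2.5 and sacCer3 (R64); the sources used here do not give the counting tool or its use of strand. The authors' deposited read counts are whole numbers, the lowest being 1. The authors' deposited TPM gave levels within a library. Deposited RPM and RPKM, in 1 RNA-seq file only, served to check gene lengths (50 nt below the coding length for 5716 of 5994 genes).

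Counts were scaled by TMM (edgeR 4.0.16, R 4.3.3) within each assay, over genes averaging at least 50 counts. Log2 ratios used a pseudocount of 1 read, with exact (Clopper-Pearson, conditional binomial) 95% intervals; those of RPF over RNA and of nonadditive values are normal approximations. Intervals cover counting error only, as each group has 1 library. Reads carry no molecular identifiers, so repeat reads of 1 molecule cannot be told apart. The calculation was tested on simulated counts that held counting error alone, which checks the arithmetic and not the variation between cultures. With 1 library per group, called means past 1.5-fold in both assays.

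Named genes are the members, at most 3 genes per wider list (those of largest mean absolute ratio), partners in a ratio, and the 3 genes nearest to a called member. Members and lists were chosen with earlier results of these data known. One listed gene name was not matched and is not analysed here. Alternatives were library totals, TMM over all listed genes or without ribosomal protein genes, DESeq2 1.42.0 size factors, other pseudocounts and count minimums, deposited TPM, and removal of the length and GC trend. Sequences and coordinates come from RefSeq R64; copies were sought with blastn 2.17.0.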

Additional observations from a re-analysis of the deposited data

Results flagged for a closer look

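For 4 members the loss of a gene went with opposite directions in the presence and absence of the other gene, in both assays and with counting intervals clear of 0. The share of all genes that met this rule was not counted, so the 4 cannot be set against it. Intervals lay above 0 in both assays for 7.68% of genes in msp1Δ and 7.14% in pex19Δ, against wild type. They lay below 0 in both for 7.57% and 7.41% in the double mutant against msp1Δ and pex19Δ. The difference itself was not tested, with 1 library per genotype, and all values of a gene come from the same 4 libraries of an assay. Values are log2 ratios in RNA-seq and RPF.

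OLE1 was at 0.39 and 0.36 on loss of MSP1 with PEX19 present and at −0.56 and −0.60 without PEX19, and at 0.81 and 0.81 on loss of PEX19 with MSP1 present and −0.14 and −0.15 without it. FAS1 was at 0.06 and 0.22 on loss of MSP1 with PEX19 and −0.38 and −0.55 without, and at 0.38 and 0.44 on loss of PEX19 with MSP1 and −0.06 and −0.33 without. FAS2 was at 0.16 and 0.27, against −0.45 and −0.57, for MSP1, and at 0.51 and 0.47, against −0.10 and −0.37, for PEX19. INO1 was at 0.45 and 0.49, against −0.16 and −0.14, for MSP1, and at 0.51 and 0.41, against −0.10 and −0.22, for PEX19.

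The msp1Δ RPF values of FAS1 and FAS2 were 0.023 and 0.083 with the length and GC trend removed. On loss of PEX19 without MSP1, the RPF values with that trend removed were −0.072 for OLE1, −0.108 for FAS1, −0.159 for FAS2 and −0.143 for INO1. With TMM over all listed genes they were −0.0147 for OLE1, −0.198 for FAS1, −0.24 for FAS2 and −0.09 for INO1, so the OLE1 value was then close to 0, though none of the values given for these 4 genes differed in sign under the 11 alternatives. In all 4 genes both single deletions had the highest values of the 4 genotypes.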

How the results depend on the processing

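The count of members past 1.5-fold in both assays was the same under all 11 alternatives in each mutant. The median member ratio moved beyond the median of the members' counting intervals in 4 cases: to 0.0825 in RPF of the msp1 deletion under TMM over all listed genes, to 0.23 (msp1) and 0.545 (pex19) in RNA-seq with deposited TPM, and to 0.473 in RNA-seq of the pex19 deletion with the length and GC trend removed. In the first 3 the scaling moved the median of all genes tested to −0.185, 0.046 and 0.113. Of 100 member ratios, 4 changed sign with deposited TPM, 2 under TMM over all listed genes and 1 each with library totals, DESeq2 size factors and the trend removed; each was within 0.14 of 0. Of the 8 FAS1 to FAS2 ratios, 8 stayed within their interval with counts per coding length. No paired analysis was possible because each group has 1 library and the labels carry no replicate numbers. ELO1 drops out at a count minimum of 200. Depth limits ELO1 and PSD1 most, with 48 to 113 and 168 to 286 RPF reads.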
